A study of Mus musculus with 6 samples.

Results

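The Ms4a genes encode small tetraspan membrane proteins, of which CD20 on B cells and the β chain of the high-affinity IgE receptor are the best known. The 8 genes described here, Ms4a1, Ms4a2, Ms4a4b, Ms4a4c, Ms4a6b, Ms4a6c, Ms4a6d and Ms4a7, were taken by symbol from the platform annotation. Each had 1 probe set that named it alone, so they stood for 8 of 19937 genes and 8 of 34760 probe sets on the array. The family was selected on its expression differences between the 2 genotype labels, which were already known, so the members' differences below are a description and carry no test.

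Bone marrow PreGMs, progenitors that precede the granulocyte-macrophage stage, were sorted from female C57BL/6 mice on day 18 after pIC, an inducer of interferon. Of the 6 arrays, 3 came from mice labelled Cebpaflox/flox;Mx1Cre and 3 from mice labelled Cebpa flox/flox, and both labels share the floxed Cebpa alleles, the pIC and the sort gate. In carriers pIC switches on Cre through the interferon-responsive Mx1 promoter, which is not specific to blood progenitors. For each array 20 ng of total RNA was amplified, and the values are RMA log2 expression values. The gate takes Kit and shuts out Sca1, CD150, CD41, FcγRII and endoglin. Kit read 10.36 to 10.69 over the 6 arrays and Slamf1, which encodes CD150, 5.21 to 5.53, whereas the genes of the excluded CD41, FcγRII and endoglin (Itga2b, Fcgr2b and Eng) lay between 6.61 and 8.06. Fcgr2b was itself higher under the Mx1Cre label, at 7.16 ± 0.10 against 6.74 ± 0.14 under flox/flox (SD, n = 3 each), with no overlap. Its limma adjusted p was 0.0410. Itga2b and Slamf1 went the other way, also without overlap, at means of 7.63 and 5.29 under Mx1Cre against 7.95 and 5.46 under flox/flox. Neither passed (limma adjusted p 0.108 and 0.383), and 21.6% of all genes did not overlap in either direction. Ly6a, which encodes Sca1, was not analysed here. As a guide to level, the mean over the arrays had a median over all genes of 6.64 and a lower quartile of 5.63.

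Cebpa, the gene targeted in the design, went against the labels. It read 8.71, 9.31 and 8.98 on the arrays labelled Mx1Cre and 6.93, 6.71 and 6.85 on those labelled flox/flox, apart by 2.17 ± 0.14 on the log2 scale (SE). The positions of its probes relative to the deleted part were not used here. Every direction below follows the labels as deposited and would turn if the labels were exchanged.

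As background, Ms4a proteins sit in the plasma membrane or in endosomes and mostly act beside a partner receptor. Ms4a1 (CD20) takes part in calcium entry in B cells, and Ms4a2 amplifies signalling by the IgE receptor of mast cells and basophils. Ms4a4b is found on T and NK cells, whereas Ms4a6c, Ms4a6d and Ms4a7 are known from monocytes and macrophages. The genes arose by local duplication and form a single cluster, so neighbours can be alike in sequence and their probes can cross-react, which was not examined here.

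Of the members, 4 are shown first by the 250 bases before their transcription start, because these are pairs of near copies with higher values and because the likeness between copies is visible in the letters. The windows are RefSeq promoter sequences of GRCm38.p6, written 5′ to 3′ on the strand of the gene. Capitals mark the C/EBP core TTNNGNAA, the ETS motif AGGAAGT and the PU.1 core GAGGAA on either strand.
Ms4a6c (GRCm38.p6 chr19:11469118-11469367, plus strand): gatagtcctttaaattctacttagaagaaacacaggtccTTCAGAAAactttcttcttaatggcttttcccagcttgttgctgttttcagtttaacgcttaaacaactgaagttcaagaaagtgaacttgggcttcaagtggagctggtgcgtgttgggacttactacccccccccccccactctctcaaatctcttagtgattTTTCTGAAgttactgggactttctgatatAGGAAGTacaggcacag
Ms4a6b (GRCm38.p6 chr19:11518309-11518558, plus strand): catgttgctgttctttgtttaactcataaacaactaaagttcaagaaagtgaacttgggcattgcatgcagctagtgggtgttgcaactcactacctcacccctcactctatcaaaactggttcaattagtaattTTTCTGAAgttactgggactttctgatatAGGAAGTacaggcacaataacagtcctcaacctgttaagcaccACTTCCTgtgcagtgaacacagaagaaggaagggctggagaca
Ms4a4c (GRCm38.p6 chr19:11407411-11407660, plus strand): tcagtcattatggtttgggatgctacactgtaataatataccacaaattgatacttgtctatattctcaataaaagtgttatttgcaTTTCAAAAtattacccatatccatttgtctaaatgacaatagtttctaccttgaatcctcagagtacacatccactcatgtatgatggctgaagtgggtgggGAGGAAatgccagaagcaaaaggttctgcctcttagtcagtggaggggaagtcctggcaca
Ms4a4b (GRCm38.p6 chr19:11443308-11443557, plus strand): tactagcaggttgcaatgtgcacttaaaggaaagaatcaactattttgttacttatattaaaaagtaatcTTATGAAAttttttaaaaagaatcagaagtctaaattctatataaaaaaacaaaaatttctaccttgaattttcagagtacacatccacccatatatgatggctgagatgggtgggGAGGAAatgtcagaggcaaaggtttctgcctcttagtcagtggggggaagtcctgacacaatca

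The Ms4a6c and Ms4a6b windows were 85.1% identical over 175 aligned bases, and the Ms4a4c and Ms4a4b windows 78.9% over 232. In the other 19 pairs of windows identity ran from 56.0% to 67.5%. Ms4a6c and Ms4a6b shared an unbroken run of 48 bases, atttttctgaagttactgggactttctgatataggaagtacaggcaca, which begins at position -49 relative to the start of Ms4a6c and at -118 relative to that of Ms4a6b. That run holds a C/EBP core on the opposite strand and an ETS motif on the same strand in both genes. Ms4a4c and Ms4a4b shared a run of 20 bases, and no other pair a run over 9. Both have GAGGAA, at -61 in Ms4a4c and -64 in Ms4a4b.

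Windows were listed for 6 of the 8 members, with 2 for Ms4a7. Of these 7 windows, 6 held TTNNGNAA, which 36.8% of all 32851 promoter windows of that length hold. The window without it was that of Ms4a2. The windows are not independent, since 2 are of Ms4a7 and others are of near copies (Ms4a6c with Ms4a6b, Ms4a4c with Ms4a4b). Nothing is read from these counts of windows. AGGAAGT was found in the Ms4a6c and Ms4a6b windows and in 7.69% of all windows, and GAGGAA in those of Ms4a4c and Ms4a4b and in 23.3% of all. TGANTCA, the AP-1 motif, was found in 1 window of Ms4a7 and in 6.75% of all. The stricter C/EBP form TTGCNNAA, the longer PU.1 form GAGGAAGT and the interferon response motif (GAAA, any 2 bases and GAAA again) were in 0 of the 7 windows, and in 9.56%, 2.44% and 2.98% of all. Both strands were searched, GAGGAAGT contains GAGGAA and AGGAAGT, and the 7 motifs were settled while the windows were in view. A match is a run of letters, not a measured binding site.

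All 8 members averaged higher on the arrays labelled Mx1Cre, by 0.05 to 3.61 log2 units, with a median of 1.04 against -0.01 for all genes. In the limma fit over all genes, 5 of the 8 (Ms4a6c, Ms4a6b, Ms4a4c, Ms4a2 and Ms4a4b) were higher at an adjusted p under 0.05 and 0 were lower, where 2.63% of all genes were higher and 2.28% lower. The 2 labels did not overlap, with the arrays labelled Mx1Cre above, for 6 members, these 5 and Ms4a6d, and 10.5% of all genes had that pattern (21.6% did not overlap in either direction). Nothing is read from either count, since the contrast was known when the family was picked. The count of 5 was the same without any one array, and 2 (Ms4a6c and Ms4a6b) with every probe set of the array in the fit.

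**Figure D1:**
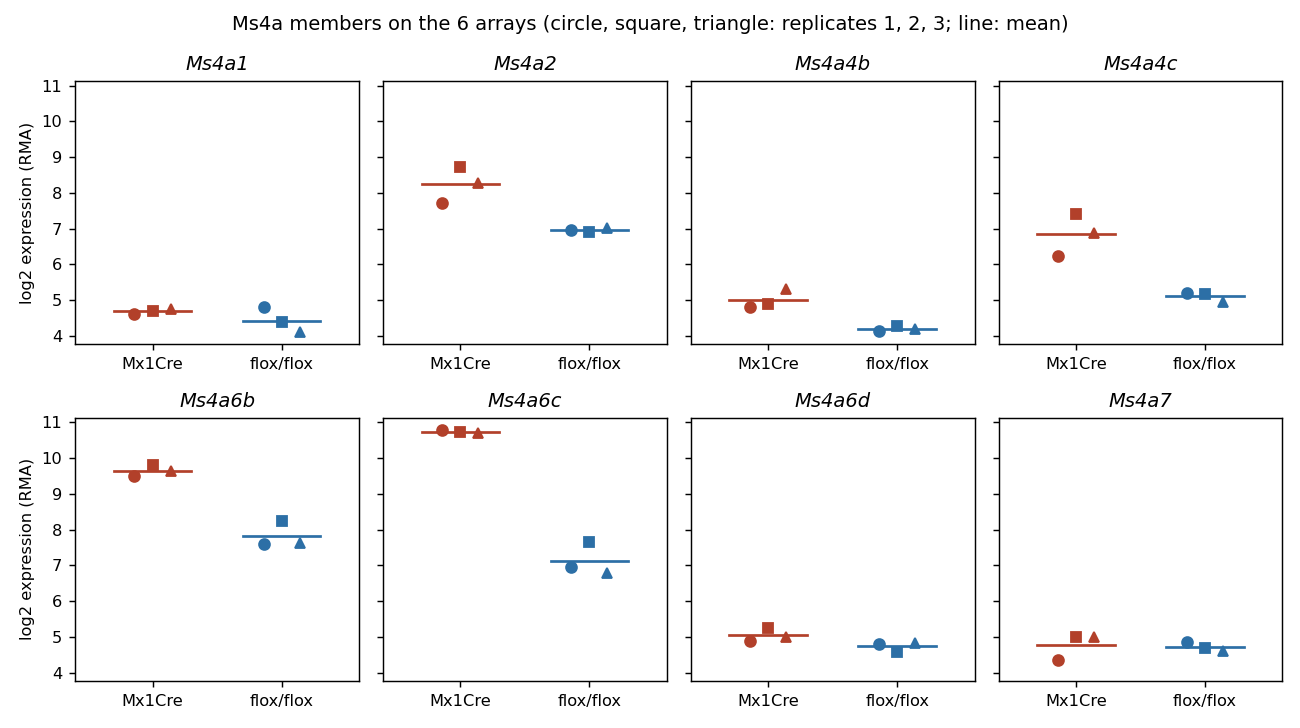
Log2 expression (RMA) of the 8 members, 1 panel a gene, with the arrays labelled Mx1Cre on the left and those labelled flox/flox on the right. Symbols stand for replicates 1, 2 and 3 and the line for their mean. Ms4a6c shows the widest gap, with 10.70 to 10.79 on the arrays labelled Mx1Cre and 6.79 to 7.66 on those labelled flox/flox, whereas the symbols of Ms4a1 and Ms4a7 overlap.

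Ms4a6c, a gene of monocytes and their progenitors, read 10.79, 10.73 and 10.70 on the arrays labelled Mx1Cre and 6.94, 7.66 and 6.79 on those labelled flox/flox. The lowest array labelled Mx1Cre lay 3.04 log2 units above the highest one labelled flox/flox. The difference was 3.61 ± 0.19 log2 units (SE), which ranked 2 among all genes that were higher. Its 3 values were tight under the Mx1Cre label (SD 0.048, n = 3) and wider under flox/flox (SD 0.47, n = 3), where replicate 2 stood highest.

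Ms4a6b, a near copy on the other side of Gm8369, read 9.49, 9.82 and 9.63 on the arrays labelled Mx1Cre and 7.59, 8.25 and 7.63 on those labelled flox/flox. Replicate 2 was again the highest of the arrays labelled flox/flox. The difference of 1.82 ± 0.17 log2 units (SE) is a 3.54-fold higher level.

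Ms4a6d, the other gene of the Ms4a6 group and one known from macrophages, was dim under both labels. It read 4.89, 5.26 and 4.99 on the arrays labelled Mx1Cre and 4.81, 4.57 and 4.84 on those labelled flox/flox. The labels were apart by only 0.045 log2 units, and the difference of 0.31 ± 0.12 (SE) did not pass. The 3 genes of the Ms4a6 group thus ran from 0.31 to 3.61 log2 units on the same arrays.

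Ms4a4c read 6.23, 7.41 and 6.89 on the arrays labelled Mx1Cre and 5.21, 5.18 and 4.95 on those labelled flox/flox. All values under flox/flox lay below the lower quartile of gene levels and all values under Mx1Cre above it, where RMA tends to shrink differences that start from the floor. The mean was higher by 1.73 ± 0.23 log2 units (SE), a fold of 3.31, and the spread lay in the arrays labelled Mx1Cre (SD 0.59, n = 3, against 0.14, n = 3, under flox/flox).

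Ms4a4b, the copy next to it and a gene of T and NK cells, was dim throughout. It read 4.81, 4.89 and 5.32 on the arrays labelled Mx1Cre and 4.14, 4.27 and 4.21 on those labelled flox/flox. The labels did not overlap, and the difference was 0.80 ± 0.13 log2 units (SE), but all 6 values were below the lower quartile.

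Ms4a2, the IgE receptor β chain, read 7.73, 8.74 and 8.28 on the arrays labelled Mx1Cre and 6.97, 6.90 and 7.03 on those labelled flox/flox. It was even under flox/flox (SD 0.065, n = 3) and varied over 1 log2 unit under Mx1Cre (SD 0.51, n = 3), with every array of that label above every flox/flox array. The labels differed by 1.28 ± 0.20 on the log2 scale (SE), a fold of 2.43.

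Ms4a1, which encodes CD20, read 4.61, 4.70 and 4.76 on the arrays labelled Mx1Cre and 4.80, 4.39 and 4.10 on those labelled flox/flox. The labels overlapped, and the difference was 0.26 ± 0.15 log2 units (SE). Ms4a7, a macrophage gene, read 4.36, 4.99 and 4.99 on the arrays labelled Mx1Cre and 4.87, 4.70 and 4.61 on those labelled flox/flox. Its difference of 0.05 ± 0.16 log2 units (SE) was smaller than the spread within either label, and its sign turned without Mx1Cre replicate 2 (-0.05), without Mx1Cre replicate 3 (-0.05) and without flox/flox replicate 3 (-0.003). Neither gene passed, and both were dim on every array.

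The arrays labelled Mx1Cre were not alike in the levels of the members. Replicate 2 was highest and replicate 1 lowest for 5 of 8 members (Ms4a2, Ms4a4c, Ms4a6b, Ms4a6d and Ms4a7), an order that 23.7% of all genes and 33.9% of the 525 genes called higher also had. Cebpa had that order too. Ms4a6c did not, and its 3 values lay between 10.70 and 10.79. When arrays were left out in turn, the difference of Ms4a2 was 1.04 without Mx1Cre replicate 2 and 1.54 without Mx1Cre replicate 1, and that of Ms4a4c 1.45 and 2.03 log2 units. Under flox/flox, replicate 2 was highest for 3 members (Ms4a4b, Ms4a6b and Ms4a6c) and for 37.5% of all genes.

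Along chromosome 19 the higher members lay in one stretch of the cluster. In the order of the reference gene table the cluster runs from Ms4a10 to Ms4a3. The stretch from Ms4a4c to Ms4a3 had 8 measured genes, 6 of them members, with differences of 0.31 to 3.61 log2 units, and 7 were called higher. In the stretch from Ms4a10 to Ms4a4a, 11 were measured, 2 of them members (Ms4a1 and Ms4a7), with differences from -0.14 to 0.26 and 0 called. The border between the stretches was drawn after the values were seen. Neighbouring protein-coding genes, 10 on each side of the cluster, had a median of 0.03 log2 units, and 1 of 20 was called. This was Tmem109, which encodes a membrane protein and is the fifth gene outside the cluster, at 0.55 ± 0.13 log2 units (SE, limma adjusted p = 0.0437). Of the 6 fits that leave out an array, Tmem109 passed only without Mx1Cre replicate 3.

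**Figure D2:**
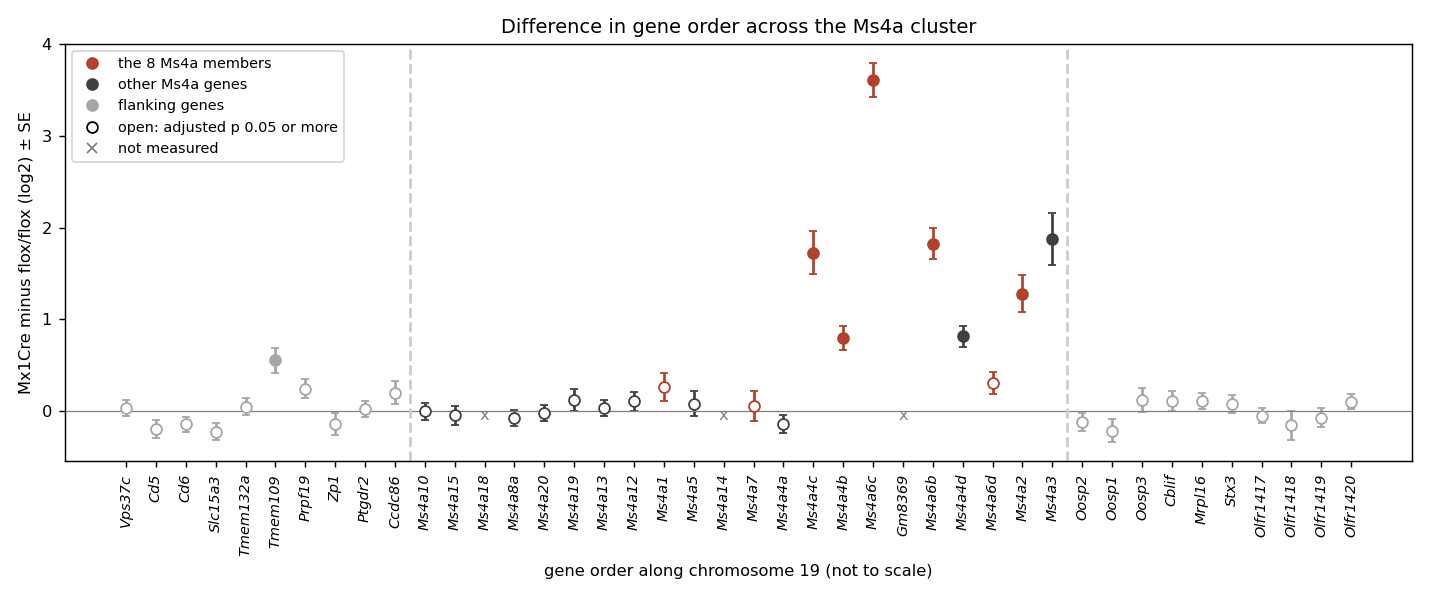
Difference (Mx1Cre minus flox/flox, log2 units, bars are SE) for each gene in its order along chromosome 19, with 10 flanking genes on each side of the cluster and spacing not to scale. Filled points passed an adjusted p of 0.05, open points did not and crosses were not measured. The filled points of the cluster lie between Ms4a4c and Ms4a3, with Ms4a6c highest at 3.61, and the genes from Ms4a10 to Ms4a4a lie near 0.

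Of the 13 measured genes listed as other Ms4a genes and relatives, 2 were higher and 0 lower, with a median of -0.004 log2 units. Ms4a3, a gene of granulocyte-macrophage progenitors, read 8.53, 9.84 and 9.05 on the arrays labelled Mx1Cre and 7.57, 7.34 and 6.89 on those labelled flox/flox (1.87 ± 0.28, SE, limma adjusted p = 0.00425). Ms4a4d read 6.02, 6.34 and 6.13 on the arrays labelled Mx1Cre and 5.18, 5.35 and 5.52 on those labelled flox/flox (0.81 ± 0.12, SE, limma adjusted p = 0.00331). Both lie within the same stretch as the higher members, but its border was drawn after the values were seen, so nothing is read from their place. With every probe set in the fit neither passed (limma adjusted p 0.0786 and 0.0510), and both passed in all 6 fits that leave out an array.

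Ms4a4a, which stands between Ms4a7 and Ms4a4c, differed by -0.14 ± 0.09 log2 units (SE) and did not pass. Ms4a5, Ms4a8a, Ms4a10, Ms4a12, Ms4a13, Ms4a15, Ms4a19 and Ms4a20 differed by -0.07 to 0.12 log2 units. Tmem176a and Tmem176b, distant relatives of the family known from dendritic cells and macrophages, differed by -0.38 ± 0.21 and -0.25 ± 0.11 log2 units (SE), and neither passed, though Tmem176a was called lower with the replicate number as a block (limma adjusted p = 0.0464). Ms4a14 and Ms4a18 were not analysed here.

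The partner genes of Ms4a2 did not go with it. Fcer1a, the IgE-binding chain of the receptor, read 4.91, 6.27 and 5.55 on the arrays labelled Mx1Cre and 7.79, 7.08 and 7.12 on those labelled flox/flox. It fell by 1.75 ± 0.30 log2 units (SE, limma adjusted p = 0.00805), with no overlap between labels. Fcer1g, the signalling γ chain that other Fc receptors share, differed by -0.04 ± 0.11 log2 units (SE) and did not pass. Among the arrays labelled Mx1Cre, replicate 2 had the highest and replicate 1 the lowest value of all 3 receptor chain genes. Of all genes, 23.7% had that order, so it is not particular to these chains.

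Of 16 measured genes of IgE receptor signalling, 0 were higher and 5 lower, with a median of -0.17 log2 units. They were Fcer1a, the adaptor genes Lat, Lcp2 and Lat2, and Syk, the kinase recruited by the γ chain. Lat was lower by 2.64-fold (-1.40 ± 0.15 log2 units, SE, limma adjusted p = 0.00054) and Lcp2 by 1.55-fold (-0.63 ± 0.09, SE, limma adjusted p = 0.00366). Fcer1a, Lat and Lcp2 passed in each of the 6 fits that leave out an array, whereas of those fits Syk passed only without flox/flox replicate 2 and Lat2 only without Mx1Cre replicate 3. The list held 3 lower genes without Mx1Cre replicate 1 or 2 or flox/flox replicate 1 or 3.

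Of all 8 measured genes for partners of Ms4a proteins, Fcer1a and Syk were lower and 0 higher, and only Fcer1a passed in all of those 6 fits. With every probe set in the fit neither passed (limma adjusted p 0.109 and 0.198). Tnfrsf18, which encodes GITR, a partner of Ms4a4b on T cells, differed by -0.36 ± 0.15 log2 units (SE). Orai1 and Stim1, the channel and the sensor of store-operated calcium entry, differed by 0.19 ± 0.10 and -0.17 ± 0.11 log2 units (SE). Cd40 and Clec7a, receptors reported beside CD20 and human MS4A4A, differed by 0.03 ± 0.10 and 0.28 ± 0.11 log2 units (SE), and none of these 5 passed.

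Some but not all markers of monocytes and their progenitors were higher on the same arrays as Ms4a6c and Ms4a6b. Of 18 measured, 9 were higher and 1 lower, with a median of 0.62 log2 units. The other 8 did not pass, with differences from -0.21 to 0.66 log2 units. The mean level of the 18 was 7.54 to 7.69 on the arrays labelled Mx1Cre and 6.53 to 6.63 on those labelled flox/flox. The 3 with the largest rises were Ly86, which encodes MD-1 and pairs with RP105 (3.83 ± 0.11), F13a1, a coagulation factor subunit (2.78 ± 0.14), and Mpeg1, the pore-forming perforin-2 (2.32 ± 0.10 log2 units, SE, limma adjusted p at most 4.66e-06). Emilin2, an extracellular matrix glycoprotein, was lower by 0.59 ± 0.11 log2 units (SE, limma adjusted p = 0.0121). It did not pass without Mx1Cre replicate 3 or flox/flox replicate 3. In RNA of sorted bulk cells, more cells of a type and more RNA per cell cannot be told apart, and the part of monocyte markers in the Ms4a values was not tested.

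Tissue macrophage markers, set beside Ms4a7 and Ms4a6d, had 2 of 17 higher and 1 lower, with a median of -0.04 log2 units. Their mean level was 5.97 to 6.05 on the arrays labelled Mx1Cre and 5.96 to 6.15 on those labelled flox/flox. Adgre1, the F4/80 antigen, was higher by 0.51 ± 0.09 log2 units and Cd163, a haemoglobin scavenger receptor, by 0.42 ± 0.10, and Spic, a factor of red pulp macrophages, was lower by 0.77 ± 0.19 (SE, limma adjusted p 0.0126, 0.0376 and 0.0483). Without flox/flox replicate 3 none of the 3 passed. The count was 1 without Mx1Cre replicate 1, Mx1Cre replicate 3 or flox/flox replicate 1. With every probe set in the fit none passed, and with the replicate number as a block Spic did not (limma adjusted p = 0.0539).

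Mast cell and basophil markers, set beside Ms4a2, had 3 of 14 higher and 1 lower, with a median of 0.06 log2 units and a mean level of 6.52 to 6.66 on the arrays labelled Mx1Cre against 6.10 to 6.26 on those labelled flox/flox. Mcpt8, a basophil protease, was higher by 2.77 ± 0.14 log2 units and Hdc, the histamine-forming enzyme, by 1.54 ± 0.19 (SE). Ms4a3, also counted among the Ms4a relatives, was higher by the value given there. These 3 higher genes are part of the mean level of the list, which was not worked out without them. Cpa3, the mast cell carboxypeptidase, read 11.14, 11.25 and 11.26 on the arrays labelled Mx1Cre and 12.04, 11.99 and 12.06 on those labelled flox/flox, and so was 1.75-fold lower. All 4 passed in every fit that leaves out an array, with limma adjusted p at most 0.00425 over all arrays. The part of these markers in the level of Ms4a2 was not tested.

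T and NK cell markers, set beside Ms4a4b, had 0 of 20 higher and 1 lower, with a median of -0.09 log2 units and a mean level of 6.03 to 6.17 on the arrays labelled Mx1Cre against 6.23 to 6.36 on those labelled flox/flox. The lower gene was Trat1, a T cell receptor adaptor (-2.56 ± 0.18 log2 units, SE, limma adjusted p = 4.62e-05). Trat1 is part of the mean level of the list, which was not worked out without it. Without Mx1Cre replicate 1 or flox/flox replicate 2 a second gene of the list passed, higher under the Mx1Cre label (Eomes and Cd28). Of 19 measured B cell markers, set beside Ms4a1, 0 were higher and 0 lower in the limma fit, with a median of -0.10 log2 units and a mean level of 6.09 to 6.15 on the arrays labelled Mx1Cre against 6.19 to 6.33 on those labelled flox/flox. At an unadjusted limma p under 0.05, 0 B cell markers were higher and 4 lower. The share of all genes at that threshold was not worked out here, so nothing is read from these 4. When single arrays were left out, 1 B cell marker passed at an adjusted p under 0.05. This was the surrogate light chain gene Vpreb1, without Mx1Cre replicate 2. Vpreb1 also passed with array weights, with the intensity trend and among genes above the median level, and Cd79a, a B cell receptor chain gene, with the replicate number as a block (limma adjusted p = 0.0392).

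Of 26 measured type I interferon response genes, 1 was higher and 5 lower, with a median of -0.23 log2 units, on arrays of mice that had all received pIC. Rtp4, Usp18 and Ifit1 were lower by 1.48 ± 0.22, 1.20 ± 0.16 and 0.86 ± 0.17 log2 units (SE, limma adjusted p 0.00408, 0.00229 and 0.0214). Ifit1 did not pass without Mx1Cre replicate 3, flox/flox replicate 2 or flox/flox replicate 3. With every probe set in the fit 1 gene of the list was lower, Usp18, and Rtp4 and Ifit1 missed at limma adjusted p 0.0744 and 0.156. Gbp3, an interferon-induced GTPase gene, had the opposite sign, 1.55 ± 0.13 log2 units (SE, limma adjusted p = 0.000116). Of the 26, 24 had a negative difference, though only 5 of these were called lower. The median difference over all genes was also slightly negative, at -0.01 log2 units, and nothing is read from the count of signs. The part of the interferon response in the Ms4a values was not tested.

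**Figure D3:**
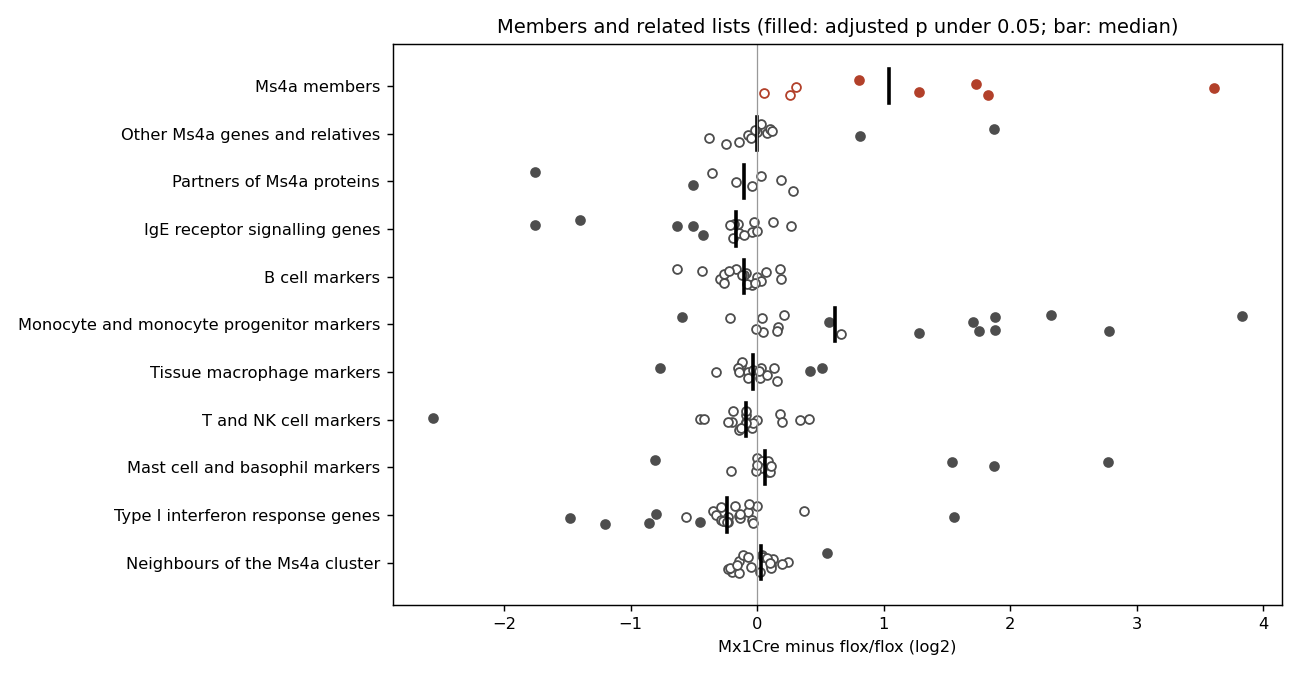
Difference (Mx1Cre minus flox/flox, log2 units) of every measured gene, with 1 row for the Ms4a members in red and 1 for each related list. Filled points passed an adjusted p of 0.05 and the bar is the median of the row. The medians of the Ms4a members (1.04) and of the monocyte list (0.62) stand to the right of the others, which lie between -0.23 and 0.06.

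Profiles over the 6 arrays were compared by the root mean square difference after each gene was centred on its own mean. For Ms4a6c the nearest of all genes were Ctsg, the granule protease cathepsin G (0.16 log2 units), Ly86 (0.26) and Tfec, an MiT family transcription factor (0.33). For Ms4a6b they were Ctss, the lysosomal protease cathepsin S (0.14), Lbp, which encodes lipopolysaccharide-binding protein (0.15), and Abcd2, a peroxisomal transporter (0.18). All 6 of these genes had flox/flox replicate 2 as the highest array of that label, as Ms4a6c and Ms4a6b did, and so did 44.4% of the genes called higher. Nothing is read from this, since the 6 were picked for likeness over these same arrays.

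For Ms4a4c the nearest was Ms4a3 of the same cluster (0.16 log2 units), followed by Hdc (0.21) and Elane, neutrophil elastase (0.22). For Ms4a2 the nearest were Epha7, an ephrin receptor (0.12), Gspt2, a translation termination factor (0.12), and Ctsh, the protease cathepsin H (0.15). All 6 of these genes had Mx1Cre replicate 2 highest and replicate 1 lowest, as Ms4a4c and Ms4a2 did, which again follows from how they were picked.

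**Figure D4:**
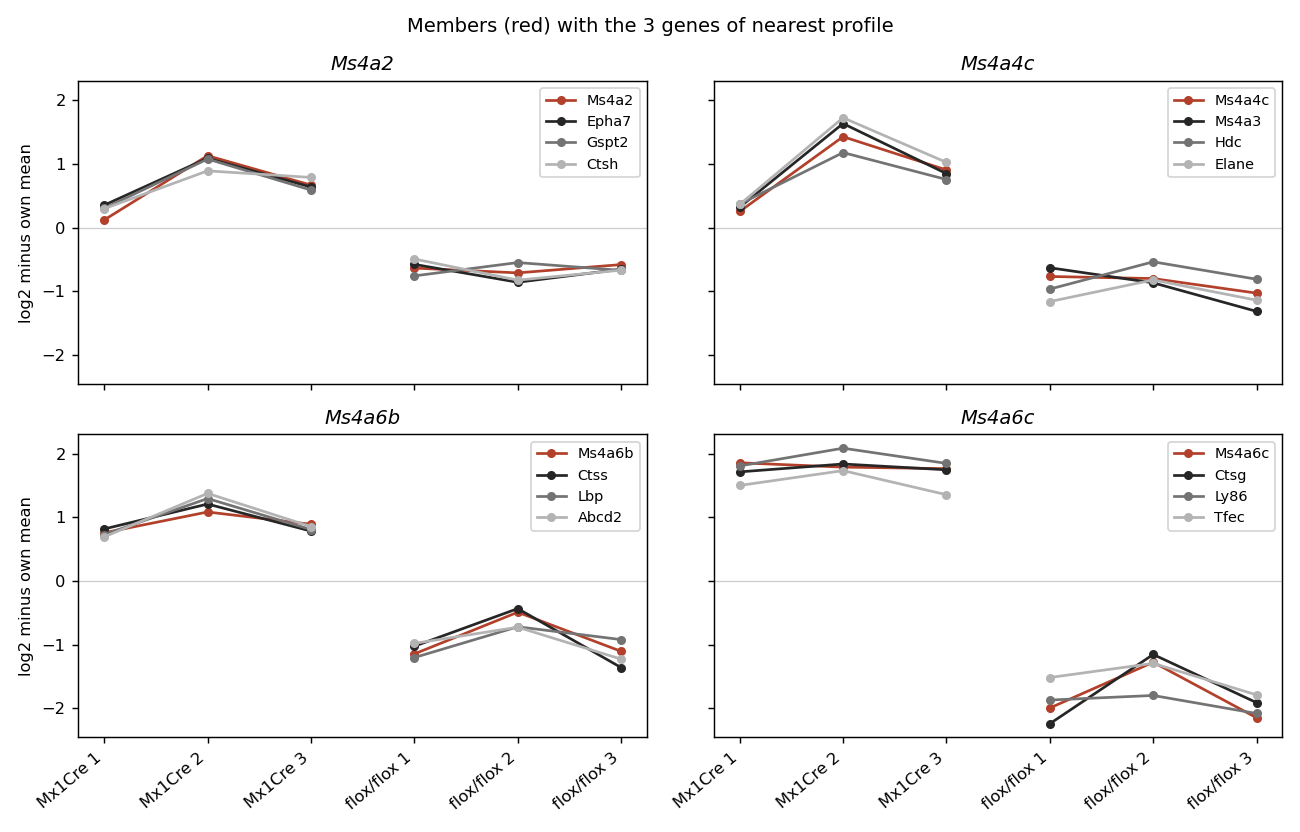
Log2 expression minus each gene's own mean on the 6 arrays, with the arrays labelled Mx1Cre on the left, for the 4 members that differed by 1 log2 unit or more (red) and the 3 genes of nearest profile (black to grey). In the panels of Ms4a2 and Ms4a4c replicate 2 stands above replicates 3 and 1 under the Mx1Cre label, and in the panel of Ms4a6c the values under that label are level (1.77 to 1.86) and replicate 2 stands highest under flox/flox (-1.27).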

How the data were processed

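The authors deposited RMA log2 values for each probe set of an Affymetrix mouse gene array, with RMA and affy named per the submitters' processing notes; versions and chip definition are not given in the sources used. The table was taken as deposited, with array medians of 6.43 to 6.55. Each mouse gave 1 array, with 3 mice per genotype by the design text. The number of arrays limits the precision.

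Of 34760 probe sets, 21640 had 1 gene symbol in the platform annotation, 1321 several and 11799 none here. The reference table held 21553 of these entries and changed 0 symbols. For 954 genes with several sets the one of highest mean was taken, giving 19937 genes. Differences (Mx1Cre minus flox/flox) came from lmFit and eBayes of limma 3.58.1, run in R 4.3.3 over all genes, with calls at a Benjamini-Hochberg adjusted p under 0.05. The fit was tested on simulated data.

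The members and lists were chosen with earlier results of these data known. The text names all members, Ms4a relatives and partners, Cebpa, up to 3 called genes a direction from each other list, and the 3 nearest profiles of members differing by at least 1 log2 unit without overlap. Lat2 and Syk of the IgE list, the sort gate genes, Vpreb1, Cd79a, Eomes, Cd28 and Lyz2 were named after their values were seen. Listed genes that have no probe set naming them alone were not analysed here. Alternatives were a replicate block, omission of single arrays, cyclic loess, median centring, removal of dim genes, other choices of probe set, array weights, a robust prior with an intensity trend, and a fit over all probe sets.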

Additional observations from a re-analysis of the deposited data

How the results depend on the processing

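The 8 members kept their direction in every alternative fit that held them, apart from Ms4a7. Members below a level cut were absent from the fits above the lower quartile or the median. Ms4a7 turned to -0.0536 without Mx1Cre replicate 2, -0.0495 without Mx1Cre replicate 3 and -0.00321 without flox/flox replicate 3. Its range was -0.0536 to 0.264 over single omissions. Leaving out 1 array gave 5 called members each time, 2 relatives, 1 to 2 partners, 3 to 4 IgE receptor signalling genes, 0 to 1 B cell, 0 to 3 macrophage, 1 to 2 T and NK cell and 4 to 6 interferon genes, 0 to 1 neighbours and 538 to 785 genes in all. The lowest of these totals were 636 without Mx1Cre replicate 2, 538 without Mx1Cre replicate 3, 541 without flox/flox replicate 1 and 547 without flox/flox replicate 3.

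With all probe sets in the fit, which adjusts over more features, 244 genes passed, with 2 members (Ms4a2, Ms4a4b and Ms4a4c missed at limma adjusted p 0.0823, 0.0784 and 0.0540), 0 relatives, 0 partners, 2 IgE receptor signalling, 0 macrophage and 2 interferon genes (1 higher and 1 lower) and 0 neighbours. Among genes above the median level, which leaves fewer to test, 3 of 3 members, 1 relative, 1 partner, 1 B cell, 1 macrophage and 0 T and NK cell genes passed. Above the lower quartile these were 4 of 4 members, 1 macrophage and 0 T and NK cell genes. Both cuts were made on the mean over all 6 arrays. Ms4a4c cleared the lower quartile of 5.63 only through the arrays labelled Mx1Cre, as its flox/flox mean was 5.12. Nothing is read from its place among those 4. Median centring gave 1 macrophage gene and 0 neighbours. Array weights gave 1 B cell gene, 3 T and NK cell genes and 0 neighbours, and the intensity trend 1 B cell gene. The cause of these changes was otherwise not tested.

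Same-numbered arrays of the 2 labels correlated in their deviations at 0.188, 0.052 and 0.174 for replicates 1, 2 and 3. Pairs of unlike number ran from -0.245 to 0.124, the highest being flox/flox replicate 2 with Mx1Cre replicate 3. The labels name no batch, and whether same-numbered arrays were handled together was not tested. With the replicate number as a block, 5 members and 1089 genes passed; it added Tmem176a (lower, for 3 relatives in all), Cd79a (lower, 1 B cell gene) and Lyz2 (higher, a monocyte marker) and lost Spic, and changed no other call of a listed gene. Dim members (4 of 8 below the lower quartile) have little signal over background, which limits them.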
